A study of Homo sapiens with 5 samples.

Results

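The TNF superfamily genes were followed across 5 human cell lines whose RNA was sequenced once each (1 library for every line). Members were the rows of the expression table whose symbol begins with TNFSF or TNFRSF and a digit, with no hyphen, together with FAS, FASLG, CD40, CD27, CD70, LTA, LTB, LTBR and TNF. The rule found 41 of 57905 genes, 16 encoding ligands and 25 encoding receptors. MKL-1, MKL-2, WaGa and MCC13 were labelled Merkel cell carcinoma, a neuroendocrine skin cancer (4 lines), and REH was labelled pre-B-cell acute lymphoblastic leukemia (1 line). All 5 were labelled wild type, with no treatment named, and were grown in RPMI medium with fetal bovine serum. Each is an established line standing for a single tumour, so line, library and tumour cannot be told apart. As background from outside the labels, MKL-1, MKL-2 and WaGa carry the Merkel cell polyomavirus and MCC13 does not. Levels are in TPM, a relative transcript abundance scaled by transcript length and to a common library total.

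TNF superfamily ligands are mostly trimeric membrane proteins, some of them shed as soluble cytokines, that cluster their receptors on the same or a neighbouring cell. Receptors with a cytoplasmic death domain can recruit FADD or TRADD and activate caspases, whereas the others bind TRAF adaptors and activate NF-kB. Decoy receptors bind a ligand but do not pass on the full signal. In B cells the family controls survival and costimulation, and in epithelial tumours the receptors for FAS ligand, TRAIL and TNF are best known for cell death and inflammation.

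The labels were checked against marker genes. The 8 Merkel cell markers summed to 3770 (MKL-1), 4178 (MKL-2) and 7353 TPM (WaGa), called here the marker-positive lines. In MCC13 these markers summed to 4.75 TPM, with 4 of 8 listed at 0, so the expression of Merkel markers goes against its label. The 6 mesenchymal markers summed to 5078 TPM in MCC13, 745 TPM in REH and between 10.8 and 29.6 TPM in the other 3 Merkel cell carcinoma lines. Most of the sum came from VIM (3125 TPM) and FN1 (1869 TPM) in MCC13, and from VIM (724 TPM) in REH. DCN went the other way, at 0.186 TPM in MCC13 against 2.08 to 25.1 TPM in the other 3 lines, and LUM was listed at 0 in MCC13. The 9 B-lineage markers summed to 5879 TPM in REH, although VPREB1 was listed at 0 there and MS4A1 stood at 0.0359 TPM. They were not confined to REH, with sums of 116 (MKL-1), 62.2 (MKL-2), 70.2 (WaGa) and 2.68 TPM (MCC13). In the marker-positive lines EBF1 alone stood at 52.7 to 64.6 TPM. T and NK cell markers summed to at most 0.543 TPM in the Merkel cell carcinoma lines and 10.4 TPM in REH, where the myeloid markers summed to 196 TPM. The T and NK cell sum in REH was nearly all NKG7, with CD3D, CD3E, CD3G and CD2 listed at 0 and GNLY at 0.0309 TPM. The myeloid sum in REH was mostly MPO (156 TPM), beside ITGAM (22.0 TPM) and CSF1R (17.5 TPM). LYZ, CD14 and CD163 stood at no more than 0.359 TPM there. In REH, 21 genes were listed at exactly 0 although they stood at 50 TPM or more in each other line, against at most 1 such gene in any other library. REH is the only leukemia line, so genes silent in it alone also give such zeros. For any other library the count also requires a high level in REH. Silence and a failed estimate therefore cannot be told apart for an exact 0 in REH.

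Of the 41 members, 29 reached 1 TPM in at least 1 line. REH had 21 members at or above 1 TPM (8 ligands and 13 receptors) and MCC13 had 19 (5 ligands and 14 receptors). MKL-1 had 12, MKL-2 13 and WaGa 10, with 3 ligands in each of these lines. TNFRSF1A, TNFRSF12A, TNFRSF25 and TNFSF13 reached 1 TPM in all 5 lines. Summed over all members, the level was 1074 TPM in REH and 1025 TPM in MCC13, against 185 (MKL-1), 269 (MKL-2) and 229 TPM (WaGa). Ligands made up 651 TPM of the sum in REH, whereas receptors made up 922 TPM of the sum in MCC13. The remaining 12 members stayed under 1 TPM throughout, namely CD27, FASLG, TNFRSF13B, TNFRSF17, TNFRSF4, TNFRSF8, TNFRSF9, TNFSF11, TNFSF13B, TNFSF14, TNFSF18 and TNFSF8. The highest value among them was 0.875 TPM, for TNFRSF13B in REH. FASLG and TNFSF8, which encode FAS ligand and the ligand of TNFRSF8, were listed at 0 in every line.

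**Figure D1:**
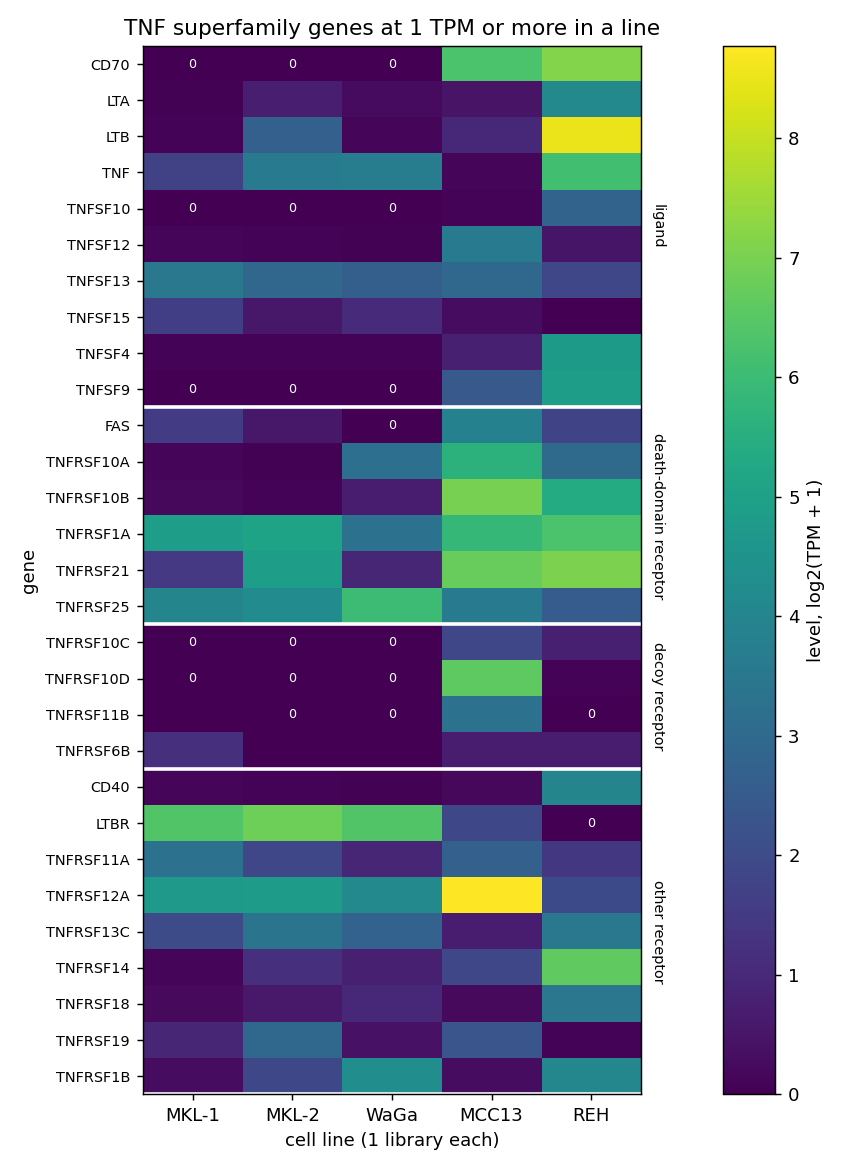
Level of each of the 29 members at 1 TPM or more in a line, as log2(TPM + 1), by cell line (columns, 1 library each) and gene (rows, grouped by role). A printed 0 marks a value listed at exactly 0. CD70, LTB, TNF and TNFSF4 are brightest in REH, TNFRSF10A to TNFRSF10D and TNFRSF12A in MCC13, and LTBR in MKL-2.

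The 4 Merkel cell carcinoma lines were first compared with REH, using limma on log2(TPM + 1). Over all genes 5.24% were called, 4.15% lower and 1.09% higher in the Merkel cell carcinoma lines. Among the 29 members tested, 7 were called lower and none higher (Benjamini-Hochberg adjusted p under 0.05). An unadjusted p under 0.05 in limma was found for 8 of the 29 members and for 4141 of all 22250 tested genes. The 7 were the ligand genes LTB, LTA, TNFSF4 and TNFSF10 and the receptor genes CD40, TNFRSF14 and TNFRSF18. Of these, CD40, LTA, TNFRSF18, TNFSF10 and TNFSF4 stayed under 1 TPM in all 4 Merkel cell carcinoma lines and entered the test through REH alone, so their number is a description. With a pseudocount of 0.1 only CD40 and TNFSF10 were still called. The comparison rests on 1 leukemia library, and the smallest exact permutation p it allows is 0.2.

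LTB encodes lymphotoxin beta, the membrane anchor of the lymphotoxin heterotrimer. It stood at 0.0585 (MKL-1), 5.44 (MKL-2), 0.0775 (WaGa), 1.0 (MCC13) and 362 TPM (REH). REH lay above every other line, and MKL-2 was the highest of the 4 Merkel cell carcinoma lines. The difference was -7.53 ± 1.22 (SE, limma, adjusted p = 0.0451) and lost its call without the variance trend (limma, adjusted p = 0.0521). In bulk RNA, fewer expressing cells and less RNA per cell cannot be told apart. LTA, the soluble lymphotoxin that pairs with LTB, stood at 0.0278 (MKL-1), 0.663 (MKL-2), 0.189 (WaGa), 0.380 (MCC13) and 16.3 TPM (REH) (difference -3.74 ± 0.41, limma, adjusted p = 0.0171). TNF, the third gene of this cluster on chromosome 6, had the same line on top. TNF stood at 2.28 (MKL-1), 10.9 (MKL-2), 12 (WaGa), 0.0919 (MCC13) and 68.2 TPM (REH). REH lay above all 4 Merkel cell carcinoma lines for TNF, but the difference did not pass (-3.83 ± 1.61, limma, adjusted p = 0.318).

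LTBR, the receptor of the LTA and LTB heterotrimer and an activator of the alternative NF-kB pathway, was lowest where LTB was highest. It stood at 82.5 (MKL-1), 112 (MKL-2), 83.0 (WaGa) and 2.74 TPM (MCC13). In REH it was listed at 0, where silence and a failed estimate cannot be told apart. The line with the highest LTB thus had no listed LTBR, and the 3 lines with high LTBR had LTB at 5.44 TPM or less. The difference of the 4 lines from REH did not pass (5.38 ± 2.13, limma, adjusted p = 0.290), but without MCC13 it did (6.53 ± 0.32, limma, adjusted p = 0.00885). With REH listed at 0, LTBR entered that test through the marker-positive lines alone. The bases before the start of both genes are shown because REH was the highest line for the ligand and the lowest for the receptor, and those of TNFRSF14 because it was called together with LTB. Each sequence is the 250 bases before the RefSeq start, 5′ to 3′ on the gene's strand (GRCh38.p14), and capitals mark a match to a searched motif. LTB lies at chr6:31582426-31582675 on the minus strand, LTBR at chr12:6383912-6384161 on the plus strand and TNFRSF14 at chr1:2556121-2556370 on the plus strand.
LTB: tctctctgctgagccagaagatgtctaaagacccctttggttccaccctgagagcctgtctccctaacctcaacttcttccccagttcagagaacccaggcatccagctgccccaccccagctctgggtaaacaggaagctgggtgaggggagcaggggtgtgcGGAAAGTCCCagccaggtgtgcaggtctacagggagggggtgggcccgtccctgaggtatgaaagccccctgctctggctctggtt
LTBR: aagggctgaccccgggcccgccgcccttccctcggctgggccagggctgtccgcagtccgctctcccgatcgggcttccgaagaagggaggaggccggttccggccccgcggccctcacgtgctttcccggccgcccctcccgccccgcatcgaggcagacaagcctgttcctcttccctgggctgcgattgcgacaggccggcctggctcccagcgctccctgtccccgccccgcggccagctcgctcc
TNFRSF14: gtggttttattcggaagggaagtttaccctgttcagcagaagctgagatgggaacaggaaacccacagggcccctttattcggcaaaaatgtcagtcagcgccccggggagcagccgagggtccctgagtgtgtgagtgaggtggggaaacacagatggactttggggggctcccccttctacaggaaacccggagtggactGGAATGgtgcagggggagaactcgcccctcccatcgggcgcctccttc
The LTB window held 1 match to an NF-kB-like motif, GGG, any 2 bases, then TTTCC, here on the opposite strand and beginning 86 bases before the start. The LTBR window held none of the 3 motifs searched on both strands. The TNFRSF14 window held the TEAD-like motif GGAATG, 48 bases before the start. Among 27050 distinct promoter windows of the same length, 1.73% held the NF-kB-like motif, 11.9% GGAATG and 6.62% the AP-1-like TGANTCA. Of the 28 members with a promoter in the table, 2 held the NF-kB-like motif (LTB and TNFRSF9), 2 GGAATG and 5 TGANTCA. The LTBR window had 27 CpG dinucleotides and the LTB window 2, against a median of 10 over all promoters and 6 over the members.

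Among the costimulatory ligands, TNFSF4, the ligand of TNFRSF4 on T cells, stood at 0.0662 (MKL-1), 0.0728 (MKL-2), 0.0649 (WaGa), 0.722 (MCC13) and 26.5 TPM (REH) (difference -4.51 ± 0.45, limma, adjusted p = 0.0132). MCC13 was the highest of the 4, although its level stayed below 1 TPM. CD70, the ligand of CD27, was listed at 0 in the marker-positive lines and stood at 76.6 (MCC13) and 139 TPM (REH). TNFSF9, which costimulates T cells through TNFRSF9, was also listed at 0 in these 3 lines, and stood at 4.45 (MCC13) and 29.2 TPM (REH). Against REH neither passed over all 4 lines (limma, adjusted p = 0.421 for CD70 and 0.145 for TNFSF9). Without MCC13 the differences were -7.13 and -4.91 (limma, adjusted p = 0.00885 for each), but both genes then entered the test through REH alone, which fixed the direction. The matching receptors were low in every line, with CD27 at no more than 0.719 TPM and TNFRSF9 at no more than 0.661 TPM. CD27 lies within a region shared with its antisense transcript CD27-AS1 (7.56 to 22.1 TPM), and whether reads were counted by strand is not stated in the labels. TAPBPL overlaps CD27 on the same strand (10.2 to 29.7 TPM), so reads of that pair may also be shared.

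CD40, the costimulatory receptor of B cells, stood at 0.103 (MKL-1), 0.0731 (MKL-2), 0.0325 (WaGa), 0.147 (MCC13) and 15.0 TPM (REH). The 4 Merkel cell carcinoma lines lay far below REH (difference -3.88 ± 0.27, limma, adjusted p = 0.00581). Their values were near the floor, where the pseudocount narrows the spread, and CD40 entered the test through REH alone, which fixed the direction. With a pseudocount of 0.1 the difference was -6.36 ± 0.70 (limma, adjusted p = 0.0197). TNFRSF14, the receptor of TNFSF14 and a ligand of the inhibitory receptor BTLA, stood at 0.103 (MKL-1), 1.3 (MKL-2), 0.724 (WaGa), 2.62 (MCC13) and 98.8 TPM (REH) (difference -5.64 ± 0.82, limma, adjusted p = 0.0348). TNFRSF18, a costimulatory receptor best known on regulatory T cells, stood at 0.160, 0.499, 0.977 and 0.157 TPM in the same order and at 10.2 TPM in REH (difference -2.99 ± 0.45, limma, adjusted p = 0.0378). REH was thus above all 4 lines for each of these receptors. TNFRSF13C, the receptor for the B-cell survival factor BAFF, was not confined to REH. It stood at 3.09 (MKL-1), 9.33 (MKL-2), 5.72 (WaGa), 0.619 (MCC13) and 10.3 TPM (REH). MKL-2 and REH had similar levels, and the difference did not pass (-1.29 ± 1.16, limma, adjusted p = 0.638). Its ligand gene TNFSF13B stayed at or below 0.771 TPM in all lines. TNFSF13, which encodes APRIL, stood at 10.5 (MKL-1), 6.45 (MKL-2), 5.36 (WaGa), 6.78 (MCC13) and 2.65 TPM (REH), while its receptor genes TNFRSF13B and TNFRSF17 stayed under 1 TPM. A read-through transcript joins TNFSF12 and TNFSF13 (at most 0.932 TPM), so reads of these neighbours may be shared.

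Leaving out MCC13, whose markers go against its label, moved the members called against REH from 7 of 29 to 10 of 25, while the share over all genes moved from 5.24% to 13.3% (8.42% lower and 4.89% higher). Of the 9 called lower, 8 were under 1 TPM in the marker-positive lines and entered through REH alone. LTBR was then called higher, CD70, TNFSF9 and TNFRSF10B were called lower in addition to the others, and LTB was no longer called (limma, adjusted p = 0.0594). Over the alternatives, the adjusted p ran from 0.00885 to 0.491 for LTBR, 0.616 for CD70 and 0.329 for TNFSF9, and from 0.0135 to 0.774 for TNFRSF10B (limma). For LTB it ran from 0.0397 to 0.154. Dropping a marker-positive line instead ended all calls of the table in limma, members included. Without MKL-1, MKL-2 and WaGa in turn, 8 of 28, 8 of 29 and 9 of 29 members had an unadjusted p under 0.05. Over all tested genes the counts at that threshold were 3194 of 21822, 3432 of 21679 and 3288 of 21789.

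**Figure D2:**
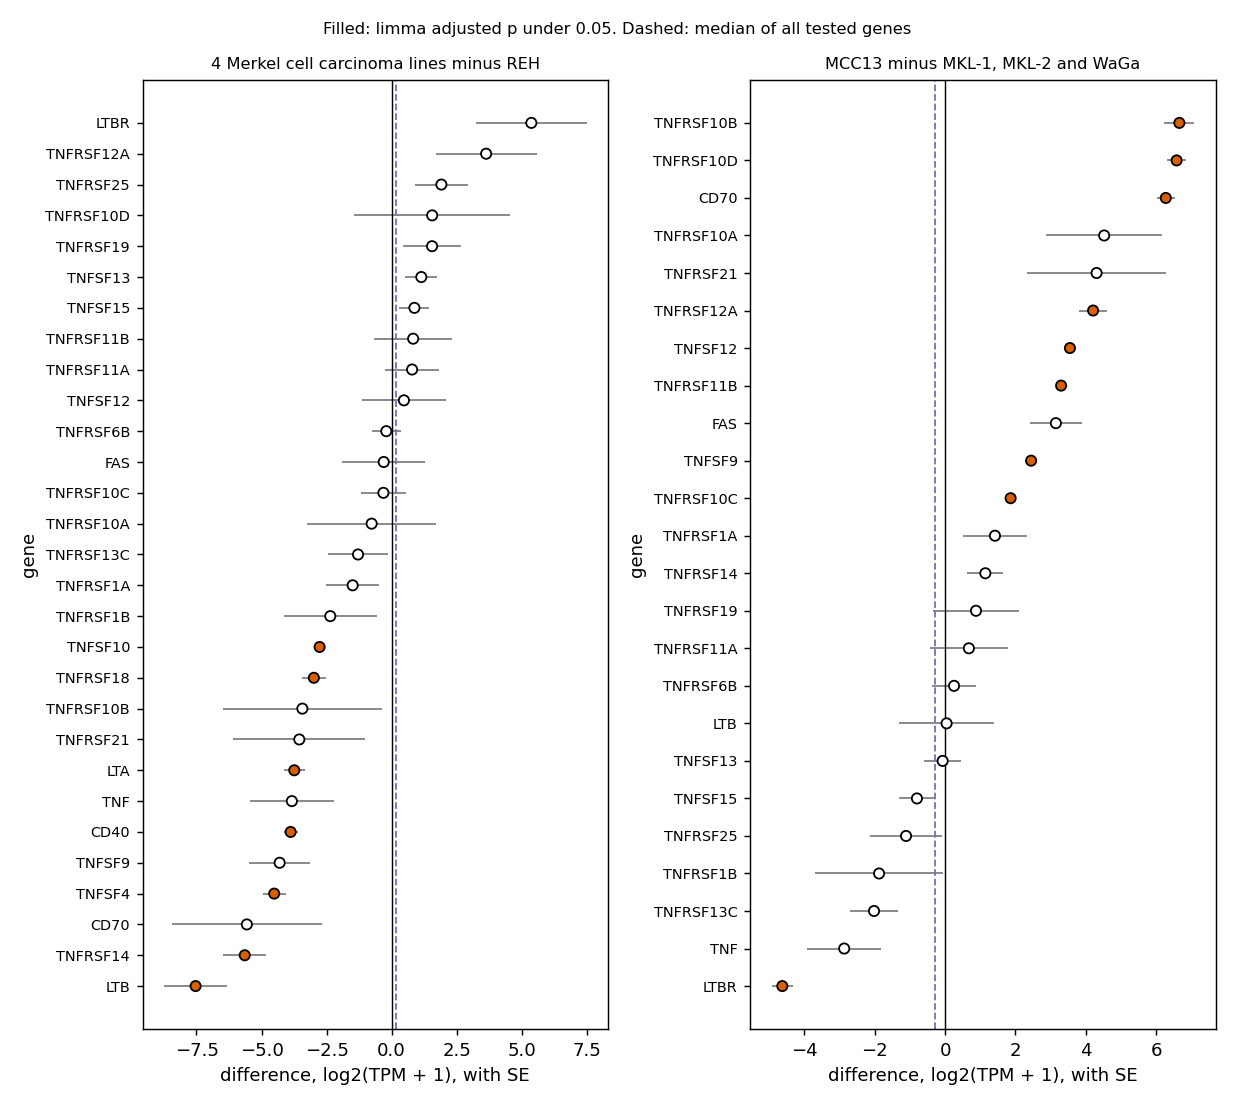
Difference in log2(TPM + 1) with its SE for the tested members, in the 4 Merkel cell carcinoma lines minus REH (left, 29 genes) and in MCC13 minus the mean of the marker-positive lines (right, 24 genes). Filled points passed limma at an adjusted p under 0.05 and the dashed line is the median of all tested genes. On the left the 7 filled points are all negative, and on the right 8 of 9 are positive, with LTBR negative.

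MCC13 was then compared with the marker-positive lines in the same way. Over all genes 8.95% were called, 6.47% higher and 2.47% lower in MCC13. Among 24 members tested, 8 were called higher and 1 lower. The 8 were the TRAIL receptor genes TNFRSF10B, TNFRSF10C and TNFRSF10D, the decoy receptor gene TNFRSF11B, the TWEAK pair TNFSF12 and TNFRSF12A, and the ligand genes CD70 and TNFSF9. All except TNFRSF12A were under 1 TPM in the other 3 lines and entered the test through MCC13 alone. MCC13 had no replicate, and the smallest exact permutation p of this design is 0.25. Dropping any marker-positive line ended every call of the table in limma. In the same order of lines, 12 of 23, 12 of 24 and 11 of 24 members had an unadjusted p under 0.05. Over all tested genes the counts at that threshold were 4414 of 20155, 4978 of 19943 and 4579 of 20095. Both comparisons share the 4 Merkel cell carcinoma libraries.

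TNFRSF10B and TNFRSF10A encode the TRAIL receptors with a death domain. TNFRSF10B stood at 0.147 (MKL-1), 0.0573 (MKL-2), 0.597 (WaGa), 125 (MCC13) and 41.6 TPM (REH) (MCC13 minus the other 3, 6.66 ± 0.43, SE, limma, adjusted p = 0.0107). MCC13 was above all other lines and REH above the marker-positive lines. Without MCC13 the difference from REH was -5.09 ± 0.39 (limma, adjusted p = 0.0135), where TNFRSF10B entered the test through REH alone. TNFRSF10A stood at 0.0814 (MKL-1), 0.0438 (MKL-2), 8.15 (WaGa), 49.1 (MCC13) and 7.11 TPM (REH). WaGa reached the level of REH for this gene, unlike MKL-1 and MKL-2, and the MCC13 difference did not pass (4.52 ± 1.65, limma, adjusted p = 0.212). Transcripts on the opposite strand overlap TNFRSF10A and were also highest in MCC13 (AC100861.1 at 18.7 and TNFRSF10A-AS1 at 8.98 TPM). Part of the TNFRSF10A reads may therefore be shared.

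The TRAIL receptors with an absent or truncated death domain, TNFRSF10C and TNFRSF10D, were listed at 0 in the marker-positive lines. TNFRSF10D stood at 95 (MCC13) and 0.0597 TPM (REH) (MCC13 difference 6.58 ± 0.27, limma, adjusted p = 0.00855). TNFRSF10C stood at 2.64 (MCC13) and 0.715 TPM (REH) (1.86 ± 0.11, limma, adjusted p = 0.00976). TNFRSF11B, osteoprotegerin, a secreted decoy for RANKL and TRAIL, stood at 8.89 TPM in MCC13, 0.0125 TPM in MKL-1 and a listed 0 elsewhere (3.30 ± 0.15, limma, adjusted p = 0.00855). Summed over the 4 TRAIL receptor genes, the level was 0.229 (MKL-1), 0.101 (MKL-2), 8.74 (WaGa), 272 (MCC13) and 49.5 TPM (REH). These genes are close relatives, and reads may have been split between them. TNFSF10, which encodes TRAIL, was listed at 0 in the marker-positive lines and stood at 0.0489 (MCC13) and 5.88 TPM (REH) (4 lines minus REH, -2.77 ± 0.20, limma, adjusted p = 0.00585). REH was thus the line in which TRAIL and its death receptors were both above 1 TPM.

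**Figure D3:**
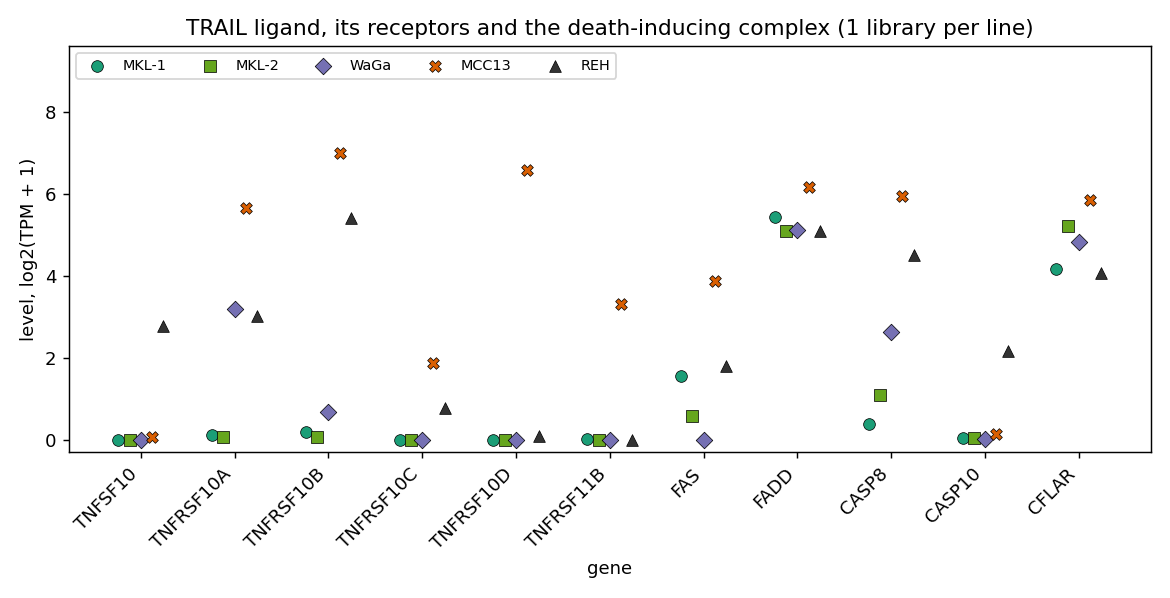
Level, as log2(TPM + 1), of TNFSF10 (TRAIL), its receptors, FAS, and the genes of the death-inducing complex in each line (1 point per library). MCC13 is highest for the 4 TRAIL receptor genes and CASP8, while FADD lies between 32.9 and 70.8 TPM in all 5 lines.

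The other death-domain receptors had mixed orders. FAS stood at 1.94 (MKL-1), 0.494 (MKL-2), a listed 0 (WaGa), 13.6 (MCC13) and 2.48 TPM (REH), and the MCC13 difference did not pass (3.15 ± 0.75, limma, adjusted p = 0.117). ACTA2 overlaps FAS on the opposite strand, at 4.41 (MKL-1), 1.17 (MKL-2), a listed 0 (WaGa), 6.11 (MCC13) and 2.54 TPM (REH). Part of the FAS reads may therefore be shared. TNFRSF1A, the main receptor of TNF, was present throughout, at 28.3 (MKL-1), 33.2 (MKL-2), 8.86 (WaGa), 56.4 (MCC13) and 76.4 TPM (REH). WaGa was lowest, and neither comparison passed (limma, adjusted p = 0.531 and 0.408). TNFRSF21, an orphan-like receptor studied mostly in neurons and lymphocytes, split the lines, with 1.72 TPM in MKL-1 and 0.919 TPM in WaGa against 29.2 TPM in MKL-2, 106 (MCC13) and 132 TPM (REH). TNFRSF25, the receptor of TNFSF15, was highest in WaGa at 63.6 TPM, with 14.8 (MKL-1), 17.7 (MKL-2), 11.4 (MCC13) and 4.84 TPM (REH). It overlaps PLEKHG5 on the same strand, which was also highest in WaGa (44.4 TPM), and ESPN on the opposite strand, at 86.4 (WaGa), 0.235 (MCC13) and 0.0424 TPM (REH), so its level is uncertain. TNFSF15 itself stood at 2.09 (MKL-1), 0.472 (MKL-2), 1.08 (WaGa), 0.215 (MCC13) and 0.00143 TPM (REH). Summed over the 6 death-domain receptors, the level was 47.0 (MKL-1), 80.8 (MKL-2) and 82.1 TPM (WaGa), 362 (MCC13) and 265 TPM (REH).

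TNFRSF12A, the TWEAK receptor, lacks a death domain and is induced in injured and growing tissue. Its level in MCC13 was the highest single value of any member. It stood at 25.2 (MKL-1), 27.7 (MKL-2), 16.5 (WaGa), 436 (MCC13) and 2.93 TPM (REH). MCC13 lay above the other 3 lines (4.21 ± 0.39, limma, adjusted p = 0.0197) and REH below all 4. TNFSF12, which encodes TWEAK, stood at 0.0934 (MKL-1), 0.0542 (MKL-2) and 0.0283 TPM (WaGa), 11.4 (MCC13) and 0.408 TPM (REH) (MCC13 difference 3.55 ± 0.18, limma, adjusted p = 0.00855). Ligand and receptor were therefore both above 1 TPM in MCC13 and in no other line. CD70 and TNFSF9, given above, differed in MCC13 from the other 3 Merkel cell carcinoma lines by 6.28 ± 0.26 and 2.45 ± 0.13 (limma, adjusted p = 0.00855 and 0.00862).

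LTBR was the member called lower in MCC13 (-4.63 ± 0.30, limma, adjusted p = 0.0112), at 2.74 TPM against 92.5 ± 17.0 TPM (SD, n = 3) in the others. SCNN1A, an epithelial sodium channel gene that overlaps LTBR on the opposite strand, was high in the same 3 lines, at 479 (MKL-1), 536 (MKL-2) and 354 TPM (WaGa), with a listed 0 in MCC13 and 0.0209 TPM in REH. The library kit keeps the strand, but whether the counting used it is not given, so reads of the pair cannot be told apart here. The TNF difference of MCC13, given its levels above, did not pass (-2.87 ± 1.06, limma, adjusted p = 0.216). TNFRSF1B, the TNF receptor without a death domain, stood at 0.218 (MKL-1), 2.76 (MKL-2), 18.5 (WaGa), 0.216 (MCC13) and 15.5 TPM (REH). WaGa and REH were the high lines and MKL-1 and MCC13 the low ones, and neither comparison passed (limma, adjusted p = 0.575 and 0.564). TNFRSF11A, the receptor of RANKL, ran from 0.937 TPM in WaGa to 8.65 TPM in MKL-1, and TNFRSF19, an orphan receptor, from 0.0611 TPM in REH to 6.59 TPM in MKL-2. TNFRSF6B, a secreted decoy for FAS ligand, reached 1.31 TPM in MKL-1, but it lies within the read-through gene RTEL1-TNFRSF6B (10.8 to 23.0 TPM) and its level is uncertain.

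Ligand and receptor were set side by side for 31 known pairs among the members. Both partners reached 1 TPM for 7 pairs in REH, 3 each in the marker-positive lines and 2 in MCC13. TNF with TNFRSF1A was such a pair in REH and every marker-positive line, and TNF with TNFRSF1B in MKL-2, WaGa and REH. REH also had LTA with TNFRSF1A, TNFRSF1B and TNFRSF14, and TNFSF10 with TNFRSF10A and TNFRSF10B. TNFSF12 with TNFRSF12A was matched in MCC13 alone. LTB with LTBR was matched in MKL-2, at 5.44 and 112 TPM, and in MCC13, at 1.0 and 2.74 TPM. LTA, the other part of that heterotrimer, was under 1 TPM in both, at 0.663 (MKL-2) and 0.380 TPM (MCC13). SCNN1A, on the opposite strand of LTBR, stood at 536 TPM in MKL-2, so the LTBR level there is uncertain. TNFSF15 was matched with TNFRSF25 in MKL-1 and WaGa, and with TNFRSF6B in MKL-1, where both receptor levels are uncertain as said above. The counts are descriptions of single libraries, and several partners lie close to 1 TPM.

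Genes that act below the receptors were taken from lists chosen with earlier results of these data known. Among 18 transcripts known to be induced by NF-kB, 12 were called higher in MCC13 than in the marker-positive lines and none lower. Over all tested genes 6.47% were called higher. The median difference was 3.93, against -0.30 over all tested genes. Of the 12, 9 were under 1 TPM in the other 3 lines and entered the test through MCC13 alone. This fixed their direction and raised the median, so count and median are descriptions. CXCL8, a neutrophil chemokine listed under its older name IL8, stood at 0.122 (MKL-1), 2.39 (MKL-2) and a listed 0 (WaGa), 300 (MCC13) and 1.04 TPM (REH) (difference 7.59 ± 0.94, limma, adjusted p = 0.0365). CXCL1, a related chemokine, stood at 247 TPM in MCC13 but at most 0.351 TPM elsewhere (7.81 ± 0.40, limma, adjusted p = 0.00859). IL6, an inflammatory cytokine, stood at 127 TPM in MCC13 but at most 0.799 TPM elsewhere (6.55 ± 0.46, limma, adjusted p = 0.0122). IL32, another cytokine of the list, stood at 536 TPM in MCC13 but at most 3.92 TPM in any other line, and did not pass (8.25 ± 1.21, limma, adjusted p = 0.0512). ICAM1, a leukocyte adhesion molecule, stood at 44.8 TPM in MCC13, 11.3 TPM in REH and no more than 0.124 TPM in the other 3 lines. The rest of the 12 were VCAM1, CXCL2, CXCL3, CCL20, BCL2A1, IER3, LIF and CSF2, at 1.11 to 589 TPM in MCC13. TNFAIP2, a TNF-induced gene, had a difference of opposite sign, with 1.21 (MCC13) against 23.0 to 72.2 TPM (marker-positive lines), but did not pass (-4.02 ± 0.85, limma, adjusted p = 0.0977). CD83, a marker of mature dendritic cells, also had a negative difference (-0.80, limma, adjusted p = 0.230). Against REH no gene of this list was called (median difference 0.34, against 0.18 over all tested genes). Most mesenchymal markers, DCN and LUM excepted, were high in the same library, and their part in the result was not tested.

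No gene of the 10 TRAF and death-domain adaptors or of the 16 IKK and NF-kB genes was called in either comparison. Their medians in MCC13 were 0.59 and 0.57. NFKB2, which encodes the precursor of the alternative pathway, stood at 5.55 (MKL-1), 15.2 (MKL-2), 2.56 (WaGa), 210 (MCC13) and 94.5 TPM (REH) (MCC13 difference 4.87 ± 1.03, limma, adjusted p = 0.0978). RELB, its partner, had 42.1 TPM in MCC13, 13.5 TPM in REH and no more than 10.9 TPM in a marker-positive line (3.99 ± 1.71, limma, adjusted p = 0.262). NFKB1 was listed at 0 in WaGa and stood at 10.9 (MKL-1), 12.6 (MKL-2), 73.9 (MCC13) and 71.6 TPM (REH), and TRAF1, an NF-kB-induced adaptor, stood at 87.3 TPM in MCC13 but at most 2.74 TPM elsewhere (5.22 ± 0.76, limma, adjusted p = 0.0513). Among 10 ubiquitin ligases and editors (median in MCC13 0.52), 1 was called higher in MCC13 and none against REH. BIRC3, an inhibitor of apoptosis recruited by TRAF2, was that gene, at 74.3 TPM against 0.527, 0.507 and 0.0326 TPM (5.82 ± 0.42, limma, adjusted p = 0.0128), and entered the test through MCC13 alone. TNFAIP3, which ends NF-kB signalling, stood at 471 TPM in REH, 49.98 TPM in MCC13, 3.42 TPM in MKL-2 and no more than 0.0472 TPM in MKL-1 and WaGa, and passed in neither comparison.

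Among the 9 caspase and cell death genes reported here, none of 7 tested was called in MCC13 by limma (median 1.27). CASP8 and MLKL had an unadjusted p under 0.05 there in limma, as did 5516 of all 20698 tested genes. Against REH, 1 of 8 tested was called lower (median -0.89). CASP10, an initiator close to CASP8, was called lower against REH, at most 0.113 TPM against 3.50 TPM (-2.10 ± 0.19, limma, adjusted p = 0.00962). It entered that test through REH alone, and 4.15% of all genes were called lower there. CASP8, the initiator recruited by FADD, stood at 0.313 (MKL-1), 1.13 (MKL-2), 5.14 (WaGa), 60.2 (MCC13) and 21.8 TPM (REH). MKL-1 and MKL-2 were lowest for CASP8 as for TNFRSF10A, but the MCC13 difference did not pass (4.57 ± 1.08, limma, adjusted p = 0.116). RIPK3, the kinase of necroptosis, was at most 0.0676 TPM in any line, and its substrate gene MLKL stood at 37.0 TPM in MCC13, 12.2 TPM in REH and no more than 2.44 TPM elsewhere. Of the 6 shedding genes 5 were tested and 1 was called. RHBDF2, a partner of the TNF-releasing protease ADAM17, was called higher in MCC13 (33.2 TPM, the marker-positive lines from 1.93 to 2.56 TPM, REH 14.0 TPM, 3.44 ± 0.39, limma, adjusted p = 0.0294), while ADAM17 itself lay between 16.2 and 49.9 TPM in all lines. Of the 6 superfamily genes that the symbol rule does not reach, none was called. CD40LG, the CD40 ligand gene, was listed at 0 in every line, and RELT, a receptor of hematopoietic tissue, lay between 18.7 and 77.9 TPM.

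**Figure D4:**
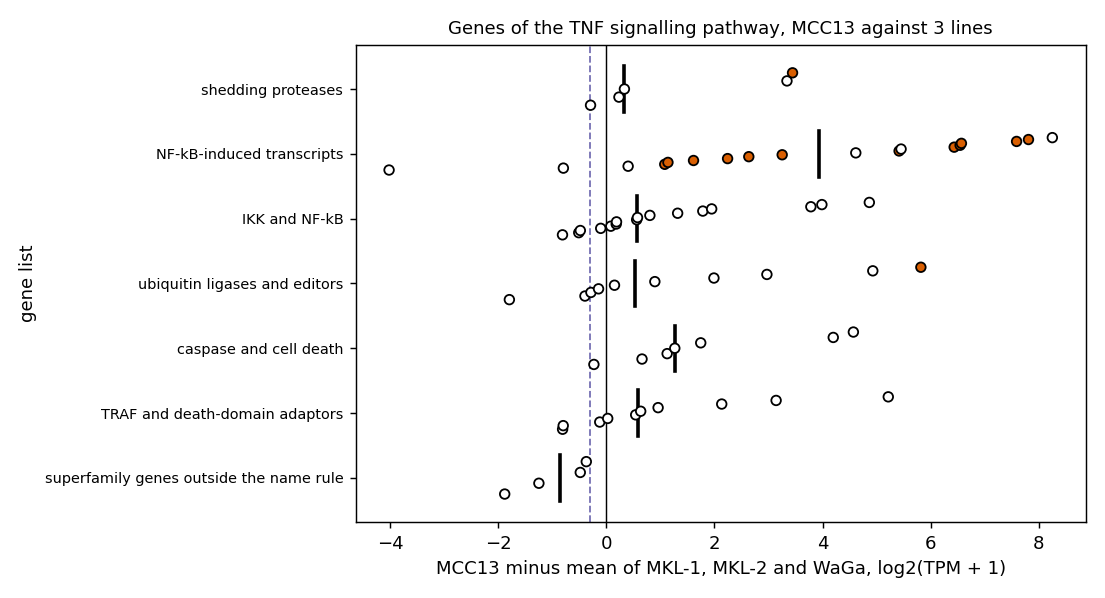
Difference in log2(TPM + 1) between MCC13 and the mean of the marker-positive lines for each tested gene of the 7 pathway lists. Points are genes, filled where limma gave an adjusted p under 0.05, thick bars are list medians and the dashed line is the median of all tested genes (-0.30). Most filled points lie in the list of NF-kB-induced transcripts (12 of 18), where 9 of the 12 entered the test through MCC13 alone.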

How the data were processed

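Poly(A)-selected RNA of 5 cell lines was sequenced with a directional kit, per the labels' protocols. The TPM values were computed by the authors and used as deposited. Alignment and quantification tools in the submitters' processing notes are StringTie 1.3.5, STAR 2.4.5b, SAMtools 0.1.19 and bcl2fastq 2.20, beside the builds GRCh37 and hg19, without role or order. Which annotation was used is not stated in those notes. TPM keeps no depth, so counting error is unknown. The deposited PAX5 exon table and 1 column that matched no sample were not used. The fit used limma 3.58.1 (R 4.3.3) on log2 values of TPM + 1 (variance trend, 2-sided, Benjamini-Hochberg over all 22250 or 20698 genes reaching 1 TPM in any line compared), tested on simulated data. Low genes thus show smaller differences than their fold change. A lone line was assumed to vary like the others, and p measures the spread between lines. Members, lists and tests were chosen with earlier results of these data known. All members were accounted for, and of each list the genes called and up to 3 others were named. These others were not always those with the largest differences. CCL2 (5.45 in MCC13) and PTX3 (4.61), neither called, were passed over, and CD83 was named although its difference was small. FADD, RIPK3, ADAM17, CD40LG and overlapping or neighbouring genes were added after their values were seen. Of 114 list symbols 113 were matched, and 1 further gene of the cell death list is not reported here. Overlaps and neighbours came from GENCODE 29, and promoters from RefSeq (GRCh38.p14), which differs from the build of the files, for 28 members. Alternatives were another pseudocount, filter, scaling or variance model, and leaving out each line.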

Additional observations from a re-analysis of the deposited data

Results flagged for a closer look

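In 9 of the 24 members at 1 TPM or more in a Merkel cell carcinoma line, 1 of the 4 lines lay apart from the other 3 on the log2(TPM + 1) scale, by a gap whose ratio to the whole range exceeded Dixon's 95% critical value. Chance alone gives this in about 1 of 20 groups. That rate does not apply to 7 of the 9, which reached 1 TPM in MCC13 alone of the 4 lines and were tested for that reason. The 9 genes are also those called in MCC13, so they are no separate evidence. MCC13 was the line apart in all 9. It was high for CD70, TNFRSF10C, TNFRSF10D and TNFSF9, with a ratio of 1.0 because the other 3 lines were listed at 0. It was also high for TNFRSF11B (0.995), TNFSF12 (0.975), TNFRSF10B (0.914) and TNFRSF12A (0.847). It was low for LTBR (0.911).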

How the results depend on the processing

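Against REH, 7 of 29 members were called, 7 with quantile normalization, 6 without the variance trend and 2 with a pseudocount of 0.1 (CD40 and TNFSF10). Without a filter 9 of 39 were called. Among genes averaging 5 TPM or more 0 of 17 members were called. There, 5 members and 2269 of 13528 genes had an unadjusted p under 0.05 (limma). Without 1 line the count of called members ran from 0 to 10. Over all 22250 genes the count of 1166 became 1416 with quantile normalization, 844 without the variance trend and 885 with a pseudocount of 0.1. It became 3694 of 40503 without a filter and 288 of 13528 at the higher filter. It was 2828 of 21247 without MCC13 and 0 without any other 1 line. For MCC13, 9 of 24 members were called, and the same 9 with the other pseudocount, scaling and variance model. It was 11 of 38 without a filter, 5 of 12 at the higher filter, which tests fewer genes, and 0 without 1 line. Over all 20698 genes the count of 1852 became 1694, 1891 and 1564 with the other pseudocount, scaling and variance model. It became 3312 of 38552 without a filter, 1167 of 13268 at the higher filter and 0 without 1 line. Values that changed sign were not called in any setting. They were FAS against REH (-1.09 to 0.20 without 1 line), TNFSF12 against REH (-0.15 with a pseudocount of 0.1), TNFSF13 in MCC13 (0.23 with quantile normalization, -0.25 to 0.18 without 1 line) and LTB in MCC13 (-0.40 to 0.91 without 1 line). FAS stood at 0.01 without MKL-2 and 0.20 without WaGa, TNFSF13 at 0.18 without MKL-1, and LTB at -0.40 without MKL-1 and -0.38 without WaGa. Quantile normalization moved the median of all genes from 0.18 to 0.03 against REH and from -0.30 to -0.13 for MCC13. The causes were not tested. Leaving out a line also takes 1 residual degree of freedom from the fit. The number of members at or above the level threshold was 29 at 1 TPM, 34 at 0.5 TPM and 26 at 5 TPM. No paired analysis was possible because the libraries come from different lines, with 1 library each. Depth is unknown, so a listed 0 sets no upper limit.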

Other observations

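Members lie together on several chromosomes, with 10 on chromosome 1, 5 on chromosome 8 and 4 on chromosome 6. On chromosome 19, TNFSF9, CD70 and TNFSF14 are neighbours. TNFSF9 and CD70 were both listed at 0 in the marker-positive lines and present in MCC13 and REH, whereas TNFSF14 was at most 0.00218 TPM in any line. TUBB4A, the coding gene on the other side of TNFSF9, was also low in those 3 lines, at 0.0929 (MKL-1), 0.0952 (MKL-2) and 0.0980 TPM (WaGa), 56.2 (MCC13) and 39.6 TPM (REH). On chromosome 6, LST1, the coding gene beside LTB, reached 146 TPM in REH and no more than 0.551 TPM in any other line, and LTB was also highest in REH. On chromosome 12, LTBR and SCNN1A were both high in the marker-positive lines, while TNFRSF1A, on the far side of SCNN1A, was highest in REH. These neighbours were chosen after their values were seen and were not tested as groups.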
